A study of Mus musculus with 12 samples.

Results

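The regions described here are the stretches of chromatin at the ends of protein-coding genes that were accessible in every one of 12 ATAC-seq libraries from mature medullary thymic epithelial cells. ATAC-seq marks DNA that a transposase can reach, and a peak is a stretch where its insertions pile up. All peaks of the 12 libraries on chromosomes 1 to 19 were merged where they overlapped, which gave 222625 regions. A region was kept when every library had a peak in it and when it lay within 1 kb (1000 bp) of an annotated end of a protein-coding gene. That left 8979 regions, 4.03% of all, selected on the presence of peaks in all 12 lists, and they are called gene-end regions below. The same presence in all 12 libraries was found for 9276 further regions that lay more than 1 kb from every gene end, called distal regions.

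The cells were sorted as mTEChi from thymi of C57BL/6 mice aged 4 to 7 weeks. Aire -/- mice lacked the autoimmune regulator, and Aire +/C313Y and Aire +/C442G mice carried a missense change in 1 copy of it. Each of these genotypes had its own pair of Aire +/+ wild types, so that 12 libraries formed 3 sets of 2 mutant and 2 wild-type libraries. The wild types are labelled alike, and their match to a set rests on the form of the sample titles. The labels do not say whether libraries came from separate or pooled animals, so the spread between the 2 libraries of a group may be technical. Presence in all 12 libraries chose the regions, so it is a description and not a result.

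Gene promoters are held open by transcription factors and remodelling enzymes, and in vertebrates most promoters of broadly active genes lie in CpG islands, stretches rich in unmethylated CG pairs. Promoters of tissue-restricted genes are more often poor in CG and carry a TATA box. In the thymic medulla AIRE releases paused RNA polymerase II at many tissue-restricted genes, so that developing T cells meet antigens of other organs. NFY, a factor of 3 kinds of subunit, binds the CCAAT box, which typically lies a short way before the start of transcription, and takes part in the activity of MHC class II and cell cycle genes.

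The promoters below are shown for the CCAAT box, whose share was higher at the stronger gene-end regions. They are the 250 bases before the RefSeq start of 4 genes among the 10 with the strongest peaks in every list, of Prkd3, whose region was among the weakest, and of 2 MHC class II genes. Capitals mark the letters CCAAT, or ATTGG where the box lies on the other strand. The build is GRCm38.p6, and each sequence reads 5′ to 3′ on the strand of its gene.
Msantd4, chr9:4376302-4376551, plus strand: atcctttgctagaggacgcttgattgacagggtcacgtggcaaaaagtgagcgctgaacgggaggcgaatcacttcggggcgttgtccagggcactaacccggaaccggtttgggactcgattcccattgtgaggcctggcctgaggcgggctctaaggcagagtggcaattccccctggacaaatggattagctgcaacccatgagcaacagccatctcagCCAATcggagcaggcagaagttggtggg
Hjurp, chr1:88277580-88277829, minus strand: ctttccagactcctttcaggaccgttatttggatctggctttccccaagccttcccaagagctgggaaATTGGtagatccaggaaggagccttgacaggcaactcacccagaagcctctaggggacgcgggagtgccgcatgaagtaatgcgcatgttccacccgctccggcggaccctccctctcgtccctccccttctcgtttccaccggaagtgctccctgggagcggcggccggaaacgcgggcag
Stt3a, chr9:36767623-36767872, minus strand: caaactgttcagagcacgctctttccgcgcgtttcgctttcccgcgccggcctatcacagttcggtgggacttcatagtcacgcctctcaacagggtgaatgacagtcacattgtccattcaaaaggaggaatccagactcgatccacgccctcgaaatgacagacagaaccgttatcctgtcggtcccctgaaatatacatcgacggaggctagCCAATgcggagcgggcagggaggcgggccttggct
Iars, chr13:49681880-49682129, plus strand: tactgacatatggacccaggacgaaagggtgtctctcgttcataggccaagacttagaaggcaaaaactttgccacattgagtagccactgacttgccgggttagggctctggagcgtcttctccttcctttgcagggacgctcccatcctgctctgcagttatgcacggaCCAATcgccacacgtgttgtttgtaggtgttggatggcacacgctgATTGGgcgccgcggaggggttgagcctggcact
Prkd3, chr17:79020817-79021066, minus strand: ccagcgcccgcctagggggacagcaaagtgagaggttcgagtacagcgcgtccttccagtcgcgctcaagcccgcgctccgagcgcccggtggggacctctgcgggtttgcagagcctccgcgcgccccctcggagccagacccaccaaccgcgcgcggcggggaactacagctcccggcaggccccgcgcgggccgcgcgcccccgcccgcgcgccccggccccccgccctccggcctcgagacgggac
H2-Aa, chr17:34287824-34288073, minus strand: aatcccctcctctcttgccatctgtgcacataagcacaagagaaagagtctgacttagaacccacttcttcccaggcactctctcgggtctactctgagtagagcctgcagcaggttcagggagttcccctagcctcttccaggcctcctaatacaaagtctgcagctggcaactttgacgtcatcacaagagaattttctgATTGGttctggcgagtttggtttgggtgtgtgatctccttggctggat
H2-Eb1, chr17:34305617-34305866, plus strand: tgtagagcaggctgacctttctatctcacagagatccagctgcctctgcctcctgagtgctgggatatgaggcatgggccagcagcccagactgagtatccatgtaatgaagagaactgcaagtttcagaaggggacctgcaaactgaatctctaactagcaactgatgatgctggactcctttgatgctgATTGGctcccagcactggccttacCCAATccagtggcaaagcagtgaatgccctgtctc

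Of the merged regions, 97849 were called in a single library, and 4.34% of those lay at a gene end. The share at a gene end was 15.9% among 7594 regions called in 11 libraries and 49.2% among the 18255 called in all 12. Of the 1204 regions within 1 kb of a gene end that were missing from 1 library, 985 were missing from a wild type of the knockout set, whose lists were the shortest. The rule thus follows those 2 lists more than the others. Peaks per list ranged from 33502 to 120031, and the gene-end regions held 8.02% to 28.6% of the peaks and 17.5% to 45.8% of the covered bases of a list. Read depth behind the lists is unknown, and a region without a peak in a list is one that was not called there.

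**Figure D1:**
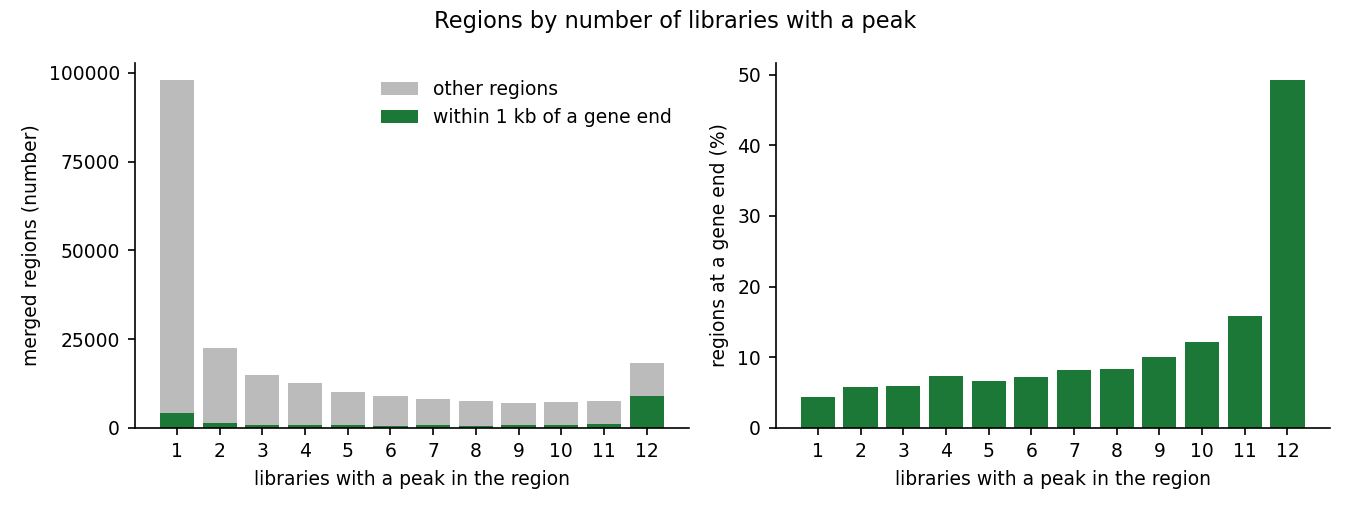
Merged regions on chromosomes 1 to 19 by the number of libraries with a peak (x axis). The left panel counts regions, with those within 1 kb of a gene end in green, and the right panel gives their share in percent, which was 4.34% for regions of 1 library and 49.2% for regions of all 12.

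Gene-end regions belonged to 9926 of 20661 protein-coding genes (48.0%). The annotated gene end itself lay inside 7612 of them (84.8%). For 16456 genes a RefSeq promoter sequence gave the strand, and among these 7766 starts (47.2%) but only 770 stops (4.68%) had a region. Most regions, 7408, lay at 1 gene, 1531 at 2 genes and 40 at 3 or more. In 507 regions the 2 genes were a pair of starts pointing away from each other. Psmb9, an immunoproteasome subunit, and Tap1, which carries peptides to MHC class I, shared such a region, with a lowest width of 471 bp, a median of 569.5 bp and a highest of 892 bp over the 12 libraries. Mrps12, a mitochondrial ribosomal protein, and Sars2, the mitochondrial seryl-tRNA synthetase, shared another (525, 568.5 and 669 bp in the same order).

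Width is the number of bases of a region that the peaks of a library cover. Ranks and bins by width instead use the percentile of the widest single peak of a region among all peaks of the same list. Regions at 2 divergent starts had library medians of 0.385 to 0.590 kb (n = 507), those at a single start 0.313 to 0.539 kb (n = 5630), and those at a single stop 0.130 to 0.302 kb (n = 240). Regions at stops were therefore narrower than those at starts in all 12 libraries. An annotated end of a noncoding gene lay within 1 kb of 8.33% of the single-stop regions and of 14.5% of all gene-end regions. Among the 919 miRNA hairpins of the RefSeq table, 39 overlapped a gene-end region, among them Mir375 at Cfap65, Mir423 at Nsrp1 and Mir484 at Marf1, which were named after their values were seen.

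Regions on either side of the distance limit were alike in width. The 99 regions 900 to 1000 bp from a gene end had library median widths of 0.199 to 0.412 kb, and the 99 regions just past 1000 and up to 1100 bp had 0.173 to 0.412 kb. Regions within 1 kb of a gene end but called in 11 libraries had medians of 0.119 to 0.354 kb, against 0.313 to 0.536 kb for those called in all 12.

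The median width of the gene-end regions differed between libraries. The knockout libraries had medians of 0.421 and 0.457 kb and their wild types 0.313 kb each. The C313Y heterozygotes had 0.437 and 0.381 kb and their wild types 0.347 and 0.374 kb. The C442G heterozygotes had 0.536 and 0.509 kb and their wild types 0.512 and 0.520 kb. Both knockout libraries and both C313Y heterozygotes lay above their own wild types, while the C442G groups overlapped. The group mean was 0.439 kb ± 0.0255 (SD, n = 2) in the knockout, 0.409 kb ± 0.0396 in C313Y and 0.522 kb ± 0.0191 in C442G, which is 1.40, 1.13 and 1.01 times the mean of the matched wild types. In the distal regions the same ratios were 1.64, 1.16 and 1.07. The lists held 84037 and 93198 peaks in the knockout and 33933 and 33502 in its wild types, so that the set with the largest width ratio also had a large gap in peak number. They held 74167 and 56173 peaks in the C313Y heterozygotes and 71554 and 54613 in their wild types, which overlap although the widths do not. The C442G heterozygotes had 120031 and 112808 peaks and their wild types 91851 and 92618, with no overlap although the widths overlap. Each list was also cut to its 33502 strongest peaks, or widest in the C313Y set. Over the 7025 gene-end regions then found, medians were 430 and 461 bp in the knockout and 343 and 341 bp in its wild types. In the C313Y set they were 448 and 401 against 366 and 390 bp. In the C442G set they were 532 and 508 against 513 and 523 bp. Beyond this cut, the part of peak number in the widths was not tested. Gene-end regions were 1.51 to 2.03 times as wide as distal regions of the same library.

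**Figure D2:**
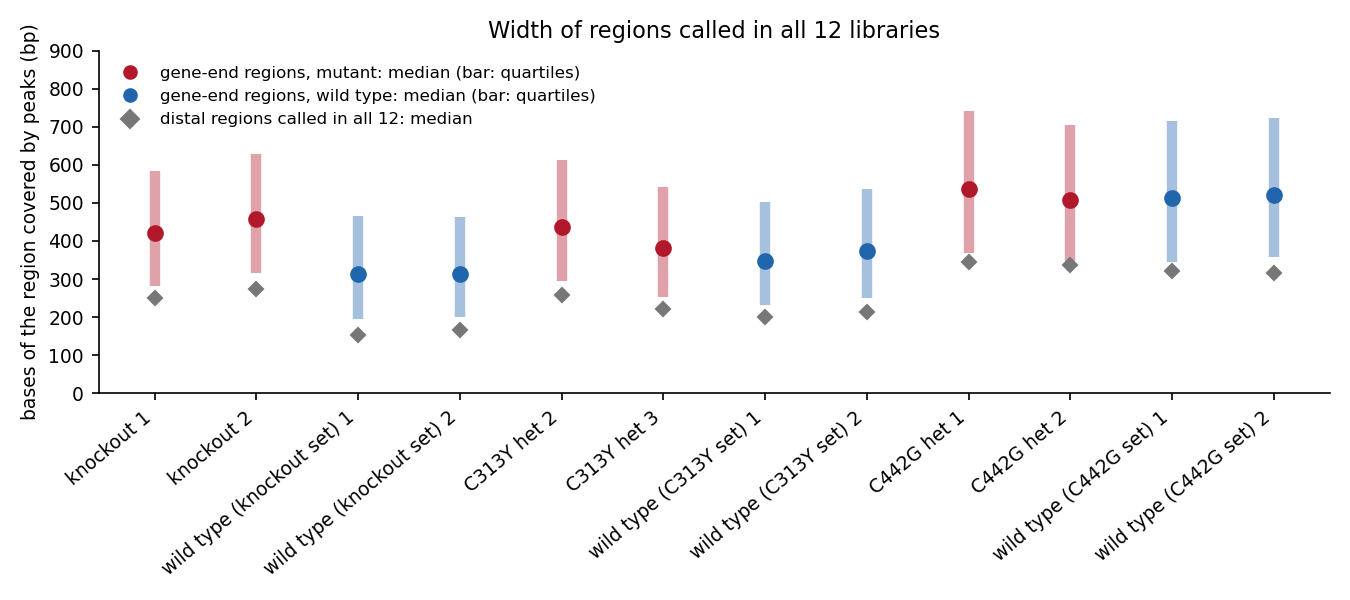
Bases of a region covered by peaks, in bp (y axis), in each of the 12 libraries (x axis). Circles are medians over the 8979 gene-end regions (red mutant, blue wild type), bars their quartiles and grey diamonds medians over the 9276 distal regions; the circles run from 0.313 kb in the wild types of the knockout set to 0.536 kb in a C442G heterozygote.

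The widest regions were large in every list. At Ube2d3, which encodes a ubiquitin-conjugating enzyme, the peaks covered 1526 and 1535 bp in the knockout, 1439 and 1444 bp in its wild types, 1551 and 1459 bp in the C313Y heterozygotes, 1429 and 1493 bp in theirs, 1534 and 1578 bp in the C442G heterozygotes and 1543 and 1568 bp in theirs. The highest of the 12 values lay close to the lowest, and no set stood apart. Setd5, a SET-domain protein, ranged from 1405 to 1631 bp, and Srcap, a chromatin remodelling ATPase, from 1099 to 1300 bp. The others of the 10 widest lay at Gm20783, Gm34296, Slc27a1 (a fatty acid transporter), Abhd11, Polr2a (the largest subunit of RNA polymerase II), Dnaja1 with Aptx, and Elf1 (an ETS factor) with Wbp4.

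The narrowest regions were Llph (65 to 109 bp), Rps19bp1 (73 to 105 bp), Serpinb1a (76 to 118 bp), Dmpk (83 to 122 bp) and Rpp30 (71 to 122 bp), and Llph, Rps19bp1 and Dmpk held theirs at the stop of the gene. The regions whose width followed the library median most closely lay at Gpr137 with Bad, Tmprss4, Usp15, Dtymk, Apbb2, Sncb, Lmcd1, Nampt, Akt1 and Elof1, with SDs of the centred log2 width of 0.11 to 0.13. The median SD was 0.37 over the gene-end regions and 0.39 over the distal ones.

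Strength was read from the 8 lists of the knockout and C442G sets, which give a fold enrichment and a −log10 p for each peak. The values are the authors' and were ranked within 1 list only. The median gene-end region reached percentile 79.5 to 92.6 of its list, against 59.5 to 88.7 for distal regions. Of the 1000 strongest peaks of a list, 768 to 828 lay in gene-end regions. The median fold enrichment was 7.74 and 8.37 in the knockout and 5.71 and 6.04 in its wild types, and 8.66 and 9.09 in the C442G heterozygotes and 7.19 and 7.85 in theirs. The fold was higher in the mutants of both sets with no overlap. In distal regions the median fold was 6.52 and 7.17 in the knockout and 4.74 and 4.86 in its wild types. It was 8.27 and 8.72 there in the C442G heterozygotes and 6.76 and 7.25 in theirs, so the order was not particular to gene-end regions. The fold is a peak caller's value, and the lists differ in length.

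Uba6, an activating enzyme of the ubiquitin pathway, ranked highest, with fold enrichments of 14.5 and 14.7 in the knockout, 14.4 and 13.6 in its wild types, 14.4 and 16.9 in the C442G heterozygotes and 13.9 and 12.9 in theirs. Its region was 344 to 624 bp wide. Lars2, the mitochondrial leucyl-tRNA synthetase, was the only gene of the 10 strongest whose region lay at the stop, with folds of 14.7 to 24.7. The other 8 were Msantd4, Hjurp (the chaperone of the centromeric histone), Stt3a (a catalytic subunit of oligosaccharyltransferase), Plrg1 (a splicing protein), Iars (the cytosolic isoleucyl-tRNA synthetase), Shprh (a ubiquitin ligase), Ypel5 and Hmgb2 (a chromatin protein). Strength and width, each as the median percentile over lists, were nearly unrelated over the 8979 regions (Spearman's rho 0.02, a description, since both come from the same peaks). The width percentile is that of the widest single peak. Of the 500 widest and the 500 strongest regions, 37 were shared.

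Lists of genes that every cell needs had the highest shares of genes with a region. Counts below are of genes with a gene-end region, beside 48.0% of all protein-coding genes, and the lists were chosen with results of these data known. All 13 RNA polymerase II subunits had a region, but only 9 did when every list was cut to the length of the shortest. In the full lists 25 of 28 Mediator subunits and 16 of 18 general promoter factors had one. In protein synthesis the counts were 73 of 80 cytosolic ribosomal proteins, 69 of 78 mitochondrial ribosomal proteins, 32 of 34 aminoacyl-tRNA synthetases and 47 of 53 translation initiation factors. In protein turnover they were 33 of 38 proteasome subunits, 30 of 34 ubiquitin-conjugating enzymes and 37 of 50 ubiquitin-specific proteases. Further, 10 of 11 SR splicing factors, 42 of 47 NADH dehydrogenase subunits, 49 of 59 histone genes, 15 of 18 SWI/SNF and 13 of 16 polycomb genes had a region. The broad promoter factors Sp1 (1032 to 1607 bp) and Zfp143 (794 to 885 bp) were among the widest of their list.

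The rule left some housekeeping genes out. Of 26 constitutive genes, 23 had a region, and Ywhaz, Reep5 and Actb had none. A peak at an annotated end, meaning in a region within 1 kb of it, was called in 7 libraries at Ywhaz, 5 at Actb and 0 at Reep5. Separately, of 8422 genes without a region that had a promoter sequence, 620 (7.36%) had a promoter start inside some region called in all 12 libraries. Nfkb2 and Cd80 were such genes, named here after their values were seen, and 0 of the constitutive genes were. Lack of a gene-end region is therefore not a measure of closed chromatin at a promoter.

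Genes that the medullary epithelium is known for stood nearer to the average. Of 20 genes of mTEC identity and antigen presentation, 11 (55%) had a region: Aire, Epcam, Krt8, Cd40, Tnfrsf11a (the receptor RANK), Cd74 (the invariant chain), H2-Aa, H2-Ab1, H2-Eb1, H2-DMa and Ccl17. At Aire the widths were 281 and 304 bp in the knockout, 187 and 230 bp in its wild types, 251 and 292 bp in the C313Y heterozygotes, 273 and 316 bp in theirs, 299 and 317 bp in the C442G heterozygotes and 257 and 300 bp in theirs. No set showed a difference there by limma (adjusted p of 0.831, 0.873 and 1 in the order above), and the labels do not give where the deletion of the knockout lies, so the region does not check the genotype. Epcam, an epithelial surface protein, varied more, from 496 to 1610 bp. The 9 genes of this list without a region ranged widely in how many libraries had a peak at an annotated end. The number was 11 at Fezf2, a transcription factor for antigens that AIRE does not control, and at the protease gene Ctss, 9 at Krt14 and Cd86 and 8 at Krt5. It was 5 at Ccl22, 4 at Ccl19, 1 at Cd80 and 0 at Ciita, the transactivator of MHC class II genes.

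Among 20 epithelial transcription factors, 11 had a region, led by Klf4 (638 to 892 bp), Grhl1 (329 to 589 bp), Klf5 (322 to 1001 bp) and Elf3 (367 to 984 bp). Of 20 genes of the NF-kB pathway, which drives the maturation of medullary epithelium, 17 had one, with Rel at 713 to 1014 bp, Relb at 735 to 1275 bp, Map3k14 (the kinase NIK) at 463 to 726 bp and the inhibitor Tnfaip3 at 427 to 775 bp. Nfkb2, Traf1 and Bcl3 had none. Of 12 AP-1 genes, 10 had one. The counts were 12 of 18 for interferon-induced genes, 12 of 16 for ETS factors and 5 of 9 for insulation and cohesin. Of 25 reported partners of AIRE, 22 had a region, among them the elongation kinase Cdk9 (960 to 1437 bp), Prkdc (590 to 841 bp, shared with Mcm4) and Atf7ip (530 to 890 bp). Xrcc6 and Hnrnpl were among those without one.

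Tissue-restricted genes were rare among the members. Of 19 genes listed as antigens induced by Aire, Pcp4 (85 to 200 bp) and Apoa1 (72 to 293 bp, at the stop) had a region. Their dependence on Aire was not tested here. The counts were 2 of 1104 olfactory receptors, 1 of 354 vomeronasal receptors, 1 of 71 defensins, 12 of 99 cytochromes P450, 5 of 51 serpins, 5 of 49 keratins, 3 of 42 collagens and 4 of 39 Hox genes. For neural genes they were 2 of 16 potassium channels and 4 of 32 glutamate and GABA receptors. The olfactory receptor Olfr94 shared its region with Ubd and the vomeronasal receptor Vmn1r4 shared its with Nt5c3. In between stood 249 of 388 zinc finger genes, 40 of 55 Rab GTPases, 13 of 31 TNF superfamily members and 26 of 78 interleukins and their receptors.

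Markers of other thymic cells were checked in the same way. None of 16 T cell, 10 fibroblast and 8 endothelial genes had a region. This did not mean that they lacked peaks, since a peak at an annotated end was missing from every library at 6 of the T cell, 1 of the fibroblast and 2 of the endothelial genes only. Bcl11b, a T cell transcription factor, and Col1a1, a collagen chain of fibroblasts, had a peak in 11 libraries each, and Cd4, Lat, Pdgfra, Rgs5, Flt1 and Esam in 9 each. These 8 were named after their values were seen, as the genes with peaks in 9 or more libraries. Of 10 haematopoietic and B cell genes Spi1 (130 to 253 bp) and Ebf1 (115 to 374 bp) had one. Of 12 dendritic cell and macrophage genes Flt3 (101 to 389 bp) and Xcr1 (330 to 1354 bp) had one, the latter shared with Fyco1. Among genes of other thymic epithelium, 3 of 7 cortical, 3 of 12 corneocyte-like and 2 of 11 tuft cell genes had one. The cortical genes were Ccl25, Ly75 and Dll4, the corneocyte-like Lor, Krt10 and Krt1, and the tuft cell genes Ltc4s and Sh2d6.

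**Figure D3:**
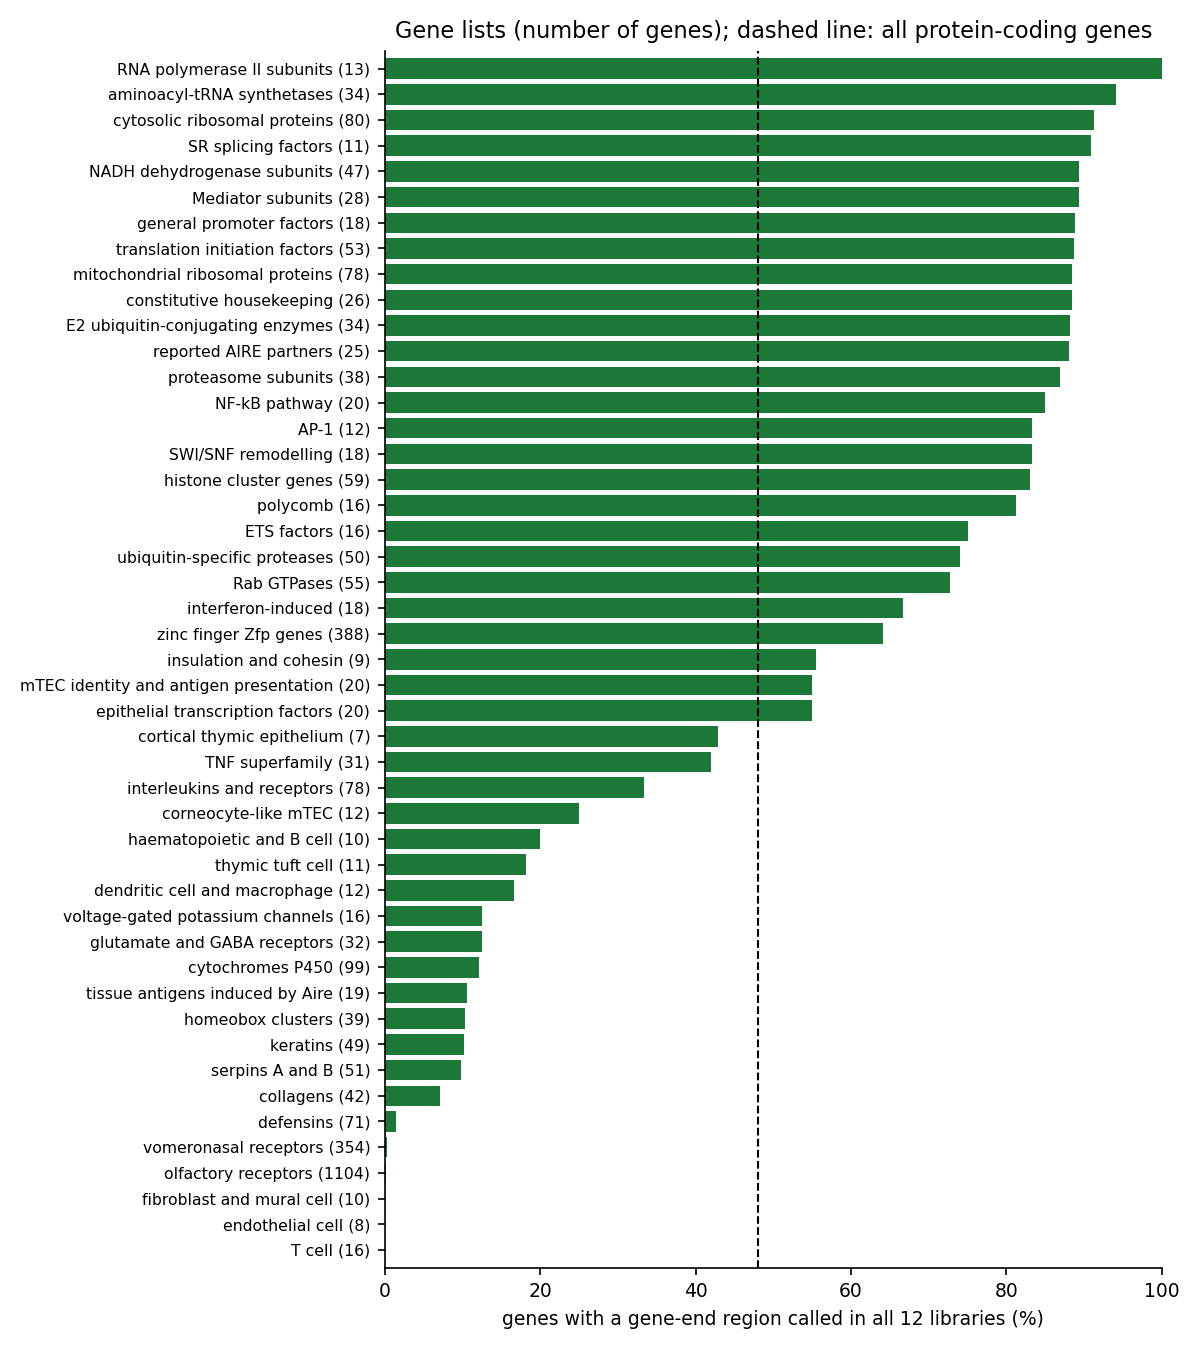
Share of the genes of each list, in percent (x axis), that have a gene-end region called in all 12 libraries; the number of genes stands beside each list name. The dashed line is the 48.0% of all protein-coding genes; polymerase, ribosome and proteasome lists lie above it and receptor, keratin and T cell lists below.

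The sequence of the promoters, which the rule did not use, differed between genes with and without a region. RefSeq promoter windows of 300 bases (250 before and 50 after the start) were used, 20084 in all, of which 8067 had their start in a gene-end region. The ratio of observed to expected CG pairs was above 0.6 in 84.8% of those windows, in 48.9% of all windows and in 9.70% of the windows outside every region. By that ratio, the share of windows in a gene-end region was 1.44% up to 0.2, 7.94% from 0.2 to 0.4, 35.0% from 0.4 to 0.6, 61.5% from 0.6 to 0.8 and 75.2% above 0.8. The SP/KLF motif GGGCGG was found in 73.0% of member windows and 47.0% of all, the ETS motif CCGGAAG in 22.7% and 11.9%, and the TATA motif TATAAA in 5.53% and 12.7%, all searched on both strands. Among the 931 windows with their start in a distal region, the CG ratio was above 0.6 in 74.9%. These windows held the SP/KLF motif in 66.8%, the ETS motif in 16.1% and the TATA motif in 4.73%. The high CG ratio and the few TATA motifs were thus not particular to gene-end regions. Further motifs, with the share of member windows first and of all windows second, were YY1 (AAGATGG, 7.93% and 6.29%), the E-box (CACGTG, 11.3% and 7.89%) and AP-1 (TGANTCA, 3.88% and 7.06%). The longer motifs of NRF1 (2.71% and 1.34%), CRE (4.23% and 2.30%), BANP (1.41% and 0.67%), ZNF143 (2.98% and 1.52%) and NF-kB (7.59% and 6.46%) were searched as well. A match is a string of letters and not a measured binding site.

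The NFY motif CCAAT was commoner at strong than at weak gene-end regions. It was found in 40.9% of the member windows, 38.1% of all windows, 38.1% of windows outside every region and 30.3% of windows in regions called in 6 to 11 libraries. Among windows with a CG ratio above 0.6 the share was 39.8% in gene-end regions and 28.7% elsewhere. The gene-end regions were cut into 4 equal bins by the median percentile of strength over the 8 lists. From the weakest bin to the strongest the motif was found in 25.1%, 29.7%, 42.9% and 60.9% of windows. In the 500 strongest regions the share was 73.7% and in the 500 weakest 23.4%. Ranked in each of the 8 lists separately, the shares were 59.8% to 75.7% in the 500 strongest and 20.5% to 27.2% in the 500 weakest, so that the order was the same in every list, mutant and wild type. The pattern was noticed after the values were seen, and it is given as a description with no test. The order was the same among windows of like base composition. At 60% to 65% GC the shares by bin were 26.8%, 31.3%, 41.5% and 61.5%, and at 65% to 70% GC they were 23.7%, 28.0%, 38.5% and 56.3%.

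The box also sat at a preferred place. In the strongest bin it was found 20.7 times per 100 windows between 75 and 50 bases before the start, against 4.26 in the weakest bin and 5.91 in windows outside every region. The place was not particular to strong regions. The weakest bin also had its most boxes there, and windows outside every region had theirs, 6.49, between 100 and 75 bases. At least 2 boxes stood in 35.5% of the windows of the strongest bin, 5.23% of the weakest and 12.8% of all. Of the promoters printed above, Msantd4, Hjurp and Stt3a have 1 box, Iars 2 and Prkd3 0. The boxes of these genes lie outside the stretch between 75 and 50 bases, so they do not show the preferred place. The printed bases of Prkd3 are 77.6% GC, against 55.2% to 60.8% in the 4 strong genes printed. The same stretch, not printed, is 69.6% GC with 1 box in Plrg1, another of the strongest. It is 62.8% GC with 0 boxes in Zfp697, another of the weakest. The GC content of the strong and the weak genes thus overlaps. In 4 bins of width the shares were 40.8%, 45.1%, 41.6% and 36.9%, from the narrowest to the widest, with no such order. The SP/KLF motif moved less with strength, from 70.8% in the weakest to 78.3% in the strongest bin, and the ETS motif went from 15.5% to 26.7%. Rarer motifs rose too: ZNF143 from 1.36% to 4.73%, BANP from 0.625% to 1.88%, YY1 from 5.45% to 9.15% and CRE from 3.24% to 5.08%. A rise with strength was thus not particular to the NFY motif. The NRF1, E-box, TATA, NF-kB and AP-1 motifs were no commoner in the strongest than in the weakest bin.

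**Figure D4:**
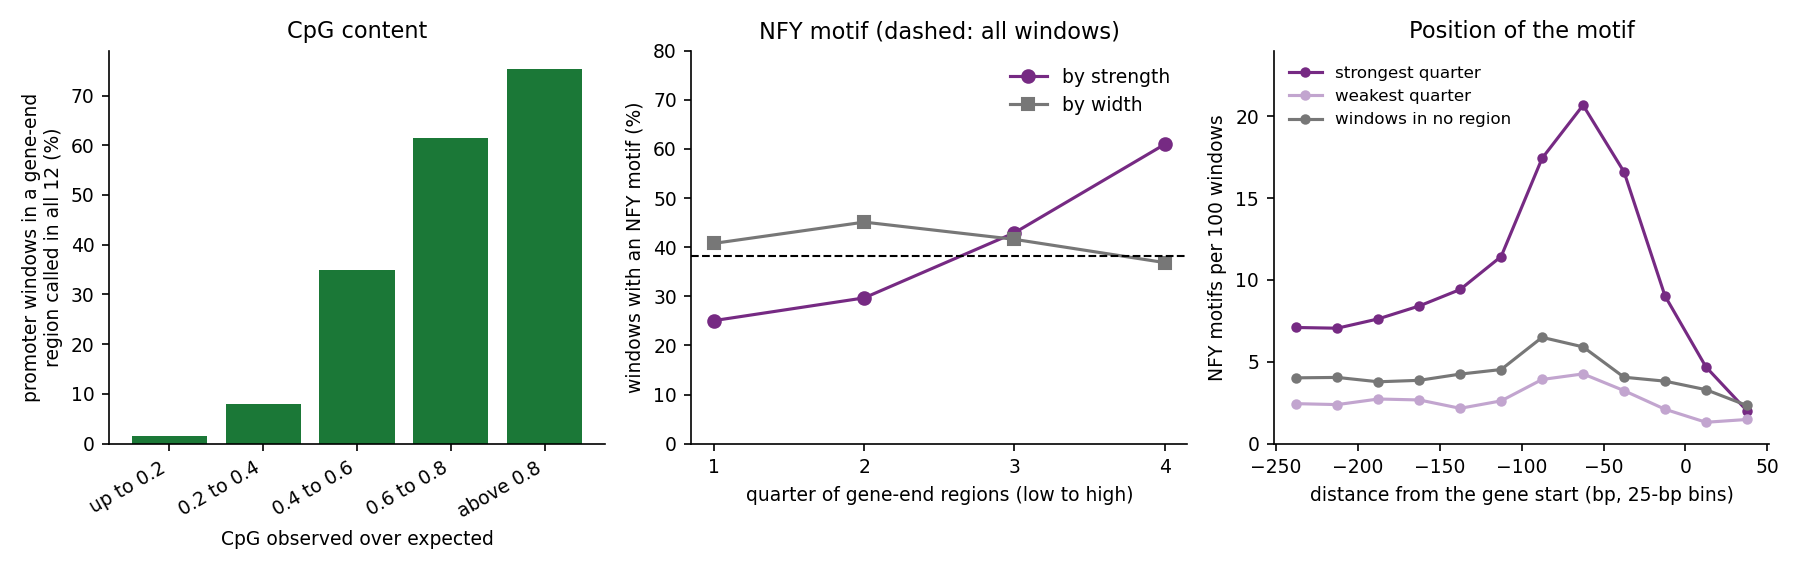
Left, promoter windows in a gene-end region (percent) by the ratio of observed to expected CG pairs, rising from 1.44% to 75.2%. Middle, windows with the NFY motif (percent) by bin of strength (purple) or width (grey), with the dashed line at the 38.1% of all windows; right, NFY motifs per 100 windows by distance from the gene start in bp, with 20.7 as the highest bin of the strongest bin.

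A small group of members had CG-poor promoters. Of 4294 windows with a ratio up to 0.2, 62 windows of 56 genes lay in a gene-end region. They included 7 MHC genes (H2-Aa, H2-Eb1, H2-Eb2, H2-Ob, H2-DMb1, H2-M2 and H2-Q2), 4 Trim genes, the ETS factor Spib, the NF-kB inhibitor Tnip1, the complement gene C3, the epithelial 14-3-3 gene Sfn and the interferon-induced Ifi35. The limit and the genes named were chosen after the values were seen. The MHC genes made up 7 of the 62 windows (11.3%), against 20 of all 4294 (0.466%). The NFY motif was in 29 of the 62 windows (46.8%), against 39.8% of all 4294. The TATA motif was in 10 (16.1%), against 25.3% of all 4294. H2-Aa has 1 box and 3 CG pairs in the 250 bases printed above, and H2-Eb1 has 2 boxes and 0 CG pairs.

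Width was then compared between mutants and wild types within each set, since the rule asked only that a width be above 0. The log2 width was centred on the library median and fitted with limma over all 18255 regions called in 12 libraries, with Benjamini-Hochberg adjustment over all of them. In the knockout set 29 gene-end regions passed an adjusted p of 0.05, which is 0.323%, against a background of 0.488% of all regions tested. The share was no higher than the background. Of the 29, 24 were wider (background 0.383%) and 5 narrower (background 0.104%) in the knockout. None of the 29 passed when the knockout set was fitted alone (0 calls) or with the replicate number as a block (0 calls), although 1335 and 1816 gene-end regions had an unadjusted p under 0.05 in those fits. The count was 5 or 3 without knockout replicate 1 or 2, 111 or 213 without wild-type replicate 1 or 2 of that set, 8 without either C442G heterozygote and 11 without either C442G wild type. Without centring it was 609, of which 608 were wider, and the median log2 difference of all regions moved from −0.13 to 0.47.

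The regions wider in the knockout were narrow in its wild types. Over the 24, the median width was 108 bp in the wild types and 622 bp in the knockout. The smallest width of any gene-end region was 66 and 70 bp in those 2 wild types, so many of these values lay near the smallest called. At Erbb3, a receptor tyrosine kinase of the EGF receptor family, the peaks covered 886 and 665 bp in the knockout and 82 and 127 bp in its wild types, but 661 and 645 bp in the C313Y heterozygotes against 751 and 743 bp, and 693 and 686 bp in the C442G heterozygotes against 696 and 1010 bp. The 2 wild types of the knockout set were thus the low ones among 12. The log2 difference was 2.31 ± 0.27 (SE; adjusted p = 0.0194, limma).

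The same shape was seen at the others of the 5 largest. At Gm2237 the widths were 897 and 1027 bp in the knockout and 67 and 120 bp in its wild types (log2 difference 2.82 ± 0.42, adjusted p = 0.0316). At the shared region of D17H6S56E-5 and Vars, the cytosolic valyl-tRNA synthetase, they were 923 and 1180 against 79 and 121 bp (2.81 ± 0.27, adjusted p = 0.0113). At Krtap13-1, a keratin-associated protein, they were 860 and 523 against 92 and 90 bp (2.28 ± 0.32, adjusted p = 0.0298). At Carmil3 with Dhrs4 they were 669 and 687 against 93 and 96 bp (2.24 ± 0.25, adjusted p = 0.0194). In the C442G set these 4 had log2 differences from −0.14 to 0.28, and in the C313Y set from −0.69 to 0.14.  The difference between the knockout and C442G effects passed at 0 of 18255 regions by limma (957 gene-end regions at an unadjusted p under 0.05). The difference between the knockout and C313Y effects passed at 1 gene-end region, Fbxo32, against a background of 0.0219%.

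The 5 narrower regions had smaller differences. At Cir1 with Scrn3 the widths were 283 and 278 bp in the knockout and 569 and 461 bp in its wild types (log2 difference −1.47 ± 0.21, adjusted p = 0.0312). The fold enrichment there was 12.5 and 15.2 in the knockout and 6.6 and 9.1 in its wild types, so that the narrower peaks had the higher fold. Fkbp15 with Slc31a1, a copper transporter, had 331 and 365 bp against 554 and 498 bp (−1.20 ± 0.17, adjusted p = 0.0309). Smg5, a nonsense-mediated decay factor, had 483 and 494 against 677 and 635 bp. Mxd1, a partner of MAX, had 546 and 570 against 660 and 749 bp, and Nr2c2, a nuclear receptor, had 675 and 752 against 901 and 857 bp. Their log2 differences were −1.03 ± 0.17, −0.94 ± 0.15 and −0.91 ± 0.15, with adjusted p of 0.0469, 0.0457 and 0.0469. These values are relative to the library medians, which were higher in the knockout. Without centring the log2 difference was −0.87 at Cir1 with Scrn3 (adjusted p = 0.0343, limma) and −0.60 at Fkbp15 (adjusted p = 0.0731). It was −0.42 at Smg5, −0.33 at Mxd1 and −0.30 at Nr2c2, with adjusted p of 0.176, 0.147 and 0.232, so that 4 of the 5 missed the threshold.

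In the C313Y set 1 gene-end region passed, against a background of 0.0274% of all regions (0.011% wider and 0.0164% narrower). Kctd3, a potassium channel tetramerization domain protein, had 193 and 140 bp in the C313Y heterozygotes and 507 and 550 bp in their wild types (log2 difference −1.89 ± 0.21, adjusted p = 0.0391). In the other 8 libraries its width was 133 to 217 bp, so that the 2 wild types of the C313Y set were the high ones. The call was lost with that set fitted alone (adjusted p = 0.589), with the replicate block (adjusted p = 0.262) and without centring (log2 difference −1.68, adjusted p = 0.0636). The block had terms for the knockout and C442G sets only, so it reached this set through the shared estimate of spread. Without centring 1 other gene-end region passed in this set, and it was wider in the heterozygotes. The count was 13 without wild-type replicate 2 of the C313Y set, 2 without wild-type replicate 1, 4 without either wild type of the knockout set and 0 without any other library.

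In the C442G set 0 gene-end regions passed by limma, against a background of 0% of all regions, with 332 at an unadjusted p under 0.05. The mean of the 3 sets gave 0 calls as well, with 1403 at an unadjusted p under 0.05 (lowest adjusted p 0.0822). A log2 difference of 1, a doubling of width, could be missed in the knockout set: on its simulated widths over 18255 regions, the fit recovered 0% of 200 differences of that size, 80.5% of those of 2 and 96% of those of 3. The calls at regions with no planted difference were 0, 12 and 14. The simulated noise was normal, with 1 spread per region shared by all groups, and the changed regions were picked at random. In the real fit some differences near 1 were called, such as 0.98 at Gab2 and −1.03 at Smg5. The 0% is therefore not a limit for every region.

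**Figure D5:**
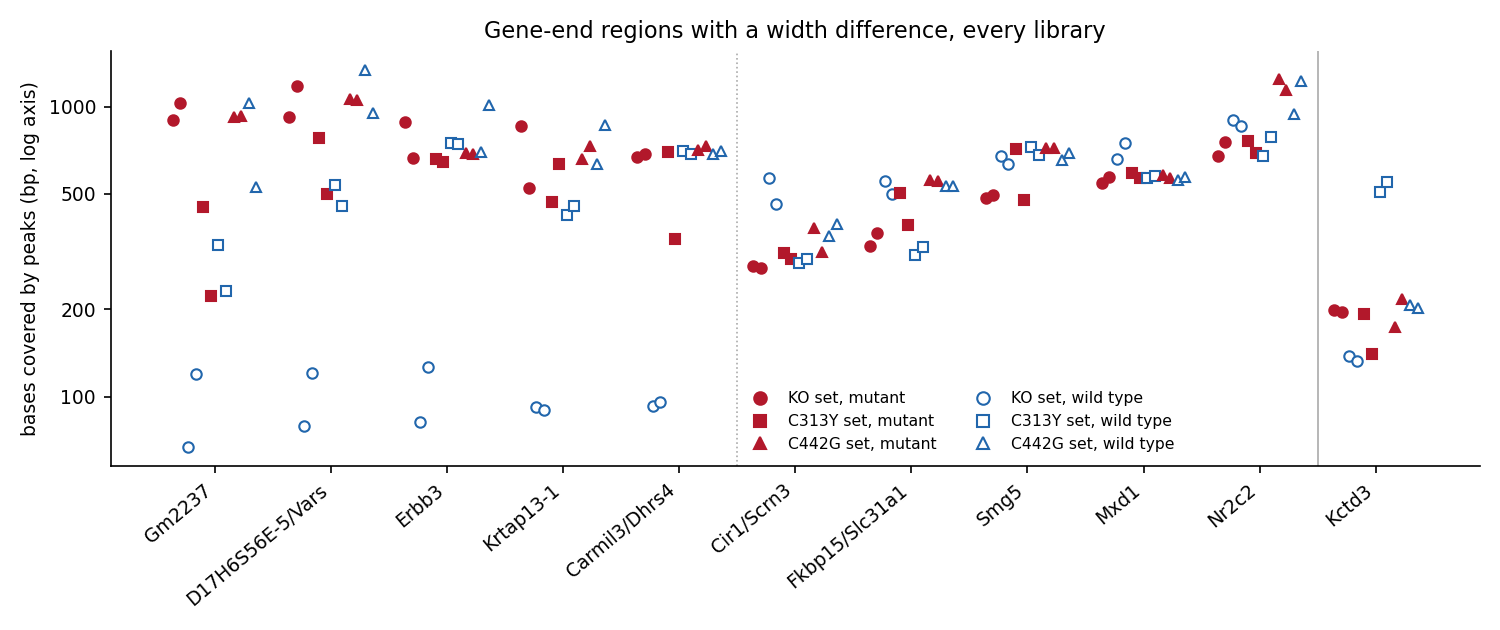
Bases covered by peaks, in bp on a log axis, in every library at the 5 regions with the largest widening and the 5 with narrowing in the knockout, and at Kctd3 (C313Y set); filled red symbols are mutants, open blue symbols wild types, and shapes the 3 sets. In the first 5 the wild types of the knockout set lie at 67 to 127 bp, below every other library; at Kctd3 the C313Y wild types lie at 507 and 550 bp, above every other library.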

How the data were processed

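Peaks of 12 ATAC-seq libraries of mTEChi were used as deposited. Tools named in the submitters' processing notes are Bowtie2, MACS2, Picard and cutadapt, with build mm10 and no versions, and the authors called peaks per library. In 8 lists the authors deposited a score, a fold enrichment (a ratio) and −log10 p-values and q-values per peak; the 4 lists of the C313Y set hold positions only. Peak positions are the authors' and depth is unknown.

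Peaks on chromosomes 1 to 19 were merged into regions at an overlap of at least 1 bp. Gene spans came from the RefSeq table of GRCm38.p6, which shares mm10 coordinates, and strand from its promoter table (4205 genes had none). Log2 widths were fitted with limma 3.58.1 in R 4.3.3, with 6 group means and a trended prior, and adjusted over 18255 regions; recovery was tested on simulated data. Same-numbered libraries did not deviate together in width (correlation −0.0041 in the knockout set and −0.0081 in the C442G set). This cannot show whether they were prepared together.

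The regions, the 47 gene lists and the tests were chosen with earlier results of these data known. Named regions were Aire, the 10 widest, 10 strongest, 10 least variable and 5 narrowest over all lists, up to 5 called per set and direction, and up to 4 genes per list, with the genes lacking a region where 5 or fewer did; a few of these are left out of the text. Alternatives were other distances, thresholds, list lengths, scalings, priors, each library left out and a replicate block; those of the named regions beyond centring, block and left-out libraries, and the windows of like GC content, were added after seeing the data.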

Additional observations from a re-analysis of the deposited data

Results flagged for a closer look

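The region at Fbxo32, a muscle-associated ubiquitin ligase subunit, had effects that differed between 2 sets by a test of the difference. The widths were 613 and 618 bp in the knockout and 102 and 122 bp in its wild types, but 411 and 397 bp in the C313Y heterozygotes and 794 and 825 bp in theirs. Mutants were thus the wider libraries in the first set and the narrower in the second, with no overlap in either. The knockout effect passed by itself (log2 difference 1.86, adjusted p = 0.0194, limma), but the C313Y effect did not (−1.21, adjusted p = 0.151). In the C442G set the widths were 759 and 836 bp in the heterozygotes and 903 and 645 bp in their wild types. The 2 wild types of the knockout set were the lowest of the 12 libraries. The knockout effect minus the C313Y effect was 3.07 ± 0.30 on the log2 scale (SE; adjusted p = 0.0229, limma). Fbxo32 was the only gene-end region to pass in the main fit, against a background of 0.0219% of all regions tested. The difference ranged from 2.97 to 3.17 with each library left out, and missed the threshold without any library other than the wild types of the knockout set and with the replicate block (adjusted p = 0.185).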

How the results depend on the processing

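The number of gene-end regions called in all 12 libraries was 8979, and lay between 6509 (−log10 q of at least 3) and 10033 (2500 bp from a gene end) over the alternatives; with each library left out it was 8966 to 9479. The number whose width differed in the knockout set was 29, and became 609 without centring, 18 with the robust prior, 48 at −log10 q of at least 3, 15 with lists of equal length, 0 with each set fitted alone and 3 to 213 with each library left out. The replicate block had terms for the knockout and C442G sets only, and whether the numbers pair the samples is not known. It gave 0 in the knockout set, and 0 in the C313Y set through the shared estimate of spread. In the C313Y set the number was 1, and became 2 with quantile normalization, 6 with the widest peak of a region, 2 with lists of equal length, 0 with each set fitted alone and 0 to 13 with each library left out. In the C442G set it was 0, and 1 with the widest peak or at −log10 q of at least 3. The knockout effect minus the C313Y effect passed at 1 gene-end region with a positive and 0 with a negative difference. These counts became 23 and 1 without centring, 8 and 0 at −log10 q of at least 3, and 5 and 0 with lists of equal length. For the knockout minus the C442G effect both counts were 0. They became 26 and 1 without centring and 8 and 2 at −log10 q of at least 3. All 11 named differences kept their direction under every alternative run, and all 11 missed the threshold under the replicate block and with each set fitted alone. The median width in the wild types of the knockout set was 302 bp with the widest peak, 332 bp at −log10 q of at least 3 and 342 bp with lists of equal length; in the C442G wild types it was 501.5 and 522.5 bp with the first 2 of these. The share of all genes with a gene-end region was 45.6% within 500 bp, 52.4% within 2500 bp and 39.0% with lists of equal length. Single gene lists moved unequally with lists of equal length. The counts became 9 of 13 for RNA polymerase II subunits, 7 of 31 for the TNF superfamily and 1 of 12 for corneocyte-like genes. They were 71 of 80 for cytosolic ribosomal proteins and stayed at 22 of 25 for reported partners of AIRE. Apart from lists made of fewer peaks or samples, the cause of these changes was not tested. Depth is unknown, and its part in the missing calls of the shortest lists was not tested.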
